A study of Homo sapiens with 6 samples.

Results

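The steroid hormone receptors of 12Z cells and a few of their partners were examined in cells left untreated (Control, n = 3) or given 10 ng/mL rhChem157S, recombinant human chemerin ending at serine 157, for 48 h (rhChem157S, n = 3). Earlier results of these data were known when the genes were chosen. The 9 genes were taken by name from the 16279 genes of the deposited tables, by a rule that uses no measured value. They are the oestrogen receptors ESR1 and ESR2, the progesterone receptor PGR, the glucocorticoid receptor NR3C1, the membrane-associated progesterone receptor components PGRMC1 and PGRMC2, the membrane oestrogen receptor GPER1, the orphan nuclear receptor NR2F2 and the coactivator NCOA3. All 9 were listed in the tables, and 8 of them passed the filter on low counts and were tested, ESR1 being the exception. 12Z is an established cell line derived from human endometriotic epithelium, all libraries come from this single line, and the samples are labelled as biological replicates without saying whether they were separate cultures, so the p-values measure the spread between these libraries.

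Steroid hormones enter the cell and bind nuclear receptors, which then sit on DNA response elements and recruit coactivators such as NCOA3 to switch genes on. In the endometrium oestrogen acting through ESR1 drives the growth of the proliferative phase, and progesterone acting through PGR stops this growth and prepares the tissue for the embryo. Glucocorticoid and progesterone receptors are held ready for hormone by HSP90 and its co-chaperones, while GPER1 and the PGRMC proteins belong to faster, membrane-based steroid signalling.

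The depth of the libraries lay between 35430881 and 38341643 counts, so that a count of 0 allows up to 3 counts, or 0.0782 to 0.0847 CPM, counts scaled to library size. The rhChem157S replicate 3 stood apart, with Pearson correlations across genes of 0.948 to 0.958 with the Control libraries, and the results are given with and without it where it matters. The epithelial label was checked against marker genes. The keratins KRT8, KRT18 and KRT19 had a mean of 868, 613 and 310 FPKM (fragments per kilobase of gene, scaled to library size), whereas EPCAM and CDH1, the defining epithelial adhesion genes, had a mean of 0.397 and 0.219 FPKM and were lower in every treated library than in every Control library (log2 fold change -1.46 and -1.14, edgeR adjusted p = 0.165 and 0.188). In 25.1% of all genes the groups were apart in this direction in FPKM, and in 16.0% after TMM scaling. The counts were few, with 33, 22 and 45 of EPCAM in Control and 11, 7 and 16 in treated libraries. MUC1, a surface mucin of epithelia, had a log2 fold change of -0.57 and was called lower by DESeq2 (adjusted p = 0.0363). Its groups did not overlap in FPKM but did after TMM scaling. KRT8 and KRT19 had 0.29 and 0.27 and were not called, and their groups overlapped in FPKM but not after TMM scaling. The stromal genes COL1A1 and COL3A1 had a mean of 1003 and 564 FPKM and overlapping groups. COL6A3, a fibroblast collagen, and PDGFRA, a stromal growth factor receptor, were at lower levels and higher in every treated library than in every Control library, with log2 fold changes of 3.08 and 0.79 (DESeq2 adjusted p = 0.0124 and 0.0212, edgeR adjusted p = 0.106 and 0.124). In 7.36% of all genes the groups were apart in this direction in FPKM, and in 16.5% after TMM scaling. PDGFRB, another stromal growth factor receptor, went the other way with -0.60 and overlapping groups. COL1A1, COL3A1, DCN, LUM and THY1 had 0.008, -0.16, 0.39, 0.008 and 0.10, all with overlapping groups. The summed level of the 8 stromal markers was 1603 to 2070 FPKM in the Control libraries and 1135 to 2198 in the rhChem157S libraries, and that of the 8 epithelial markers was 1597 to 1867 and 1761 to 1977 FPKM. In both of these sums the groups overlapped. The immune markers summed to 122 to 172 FPKM in the Control libraries and 93.1 to 136 FPKM in the treated ones, almost all of it from CD68 and CD14, with PTPRC, which defines leukocytes, at 4 to 12 counts per library. The groups overlapped in this sum, and CD14 alone had a log2 fold change of -1.49, did not overlap and was called by DESeq2 (adjusted p = 5.11e-04). The endothelial markers summed to 1.61 to 2.06 FPKM in the Control libraries and 0.991 to 1.42 FPKM in the treated ones, which did not overlap, with PECAM1 at 0 to 10 counts. VWF, the von Willebrand factor of endothelium, had 112 to 159 counts in Control and 13 to 64 in treated libraries, a log2 fold change of -1.97 (DESeq2 adjusted p = 0.00608, edgeR adjusted p = 0.117). The part of these markers in the receptor values was not tested, and in bulk RNA fewer cells of one type and less RNA per cell cannot be told apart.

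The levels of the 9 genes spanned more than 3 orders of magnitude. NR2F2 was the most abundant, with a mean of 77.2 FPKM over the 6 libraries (lowest 62.3, highest 95.5), followed by PGRMC1 at 48.8 (41.5 to 60.4). Next came PGRMC2 at 13.9 (12.0 to 16.3), NCOA3 just below it (11.1 to 15.3) and NR3C1 at 4.53 (4.03 to 5.80). GPER1 had 1.36 (0.794 to 1.78), PGR 0.318 (0.234 to 0.459), ESR2 0.0274 (0.0106 to 0.0450) and ESR1 0.0155 FPKM (0.00318 to 0.0310). The ranges of neighbours in this order overlapped only between PGRMC2 and NCOA3 and between ESR2 and ESR1, so the order within those pairs is not resolved. The classical sex steroid receptors ESR1, ESR2 and PGR together made up 0.179% to 0.324% of the summed FPKM of the 9 genes in a library, and NR2F2 alone 42.5% to 53.6%. The order depends in part on the gene length behind the FPKM. For NR3C1 the length implied by the authors' values was 19995 bases, 2.18 times the 9172 merged exon bases of GENCODE release 29. With the GENCODE lengths NR3C1 had a mean of 9.88 FPKM, NCOA3 12.3 and PGRMC2 10.1, PGRMC2 was above NR3C1 in 4 of 6 libraries, and the ranges of NR2F2 and PGRMC1 then overlapped as well, with NR2F2 above PGRMC1 in 6 of 6 libraries.

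**Figure D1:**
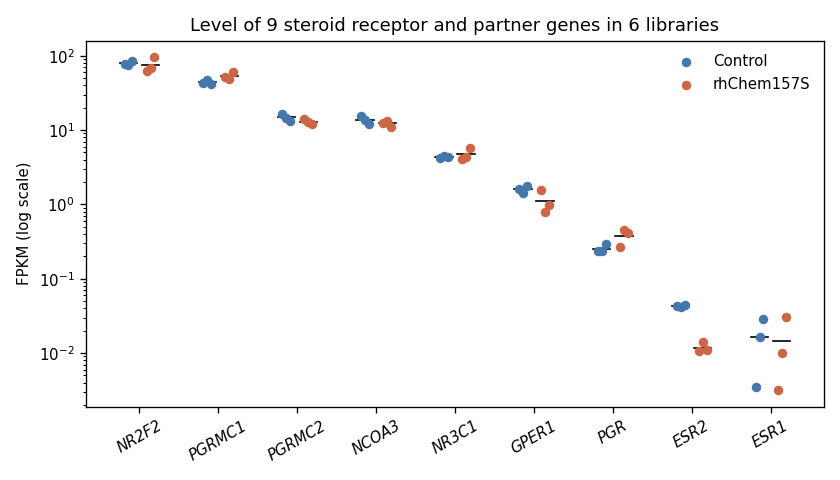
Level of each of the 9 genes in FPKM (vertical log axis), ordered by the mean. Each point is 1 library, blue for Control and orange for rhChem157S, and the black lines are group means. NR2F2 and PGRMC1 lie at or above 41.5 FPKM in every library, and ESR1 and ESR2 lie at or below 0.0450 FPKM in every library.

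None of the 8 tested members passed an adjusted p of 0.05 between rhChem157S and Control cells (edgeR's quasi-likelihood test, Benjamini-Hochberg adjustment over 13311 genes), where 0.0301% of all genes did, and DESeq2 called 0 members against 10.6% of all genes, or 2.75% when a log2 fold change beyond 1 was required too. At an unadjusted p under 0.05 with edgeR there were 3 members, ESR2, PGR and PGRMC1, against 22.8% of all genes. In 2 of the 8, ESR2 and PGRMC1, the groups did not overlap in CPM after TMM scaling, where 32.5% of all genes did not (16.0% lower and 16.5% higher). The same held for both in FPKM, where 25.1% of all genes were lower without overlap and 7.36% higher. ESR2 passed the filter on low counts only through its Control libraries, so its part in these counts of members is no support. The median log2 fold change of the 8 was 0.02, beside 0.01 over all genes tested. With library size alone in place of TMM scaling the median of all genes was -0.12 and that of the members -0.11. The median of the members also turned on single libraries, being -0.03 without rhChem157S replicate 3, 0.22 without rhChem157S replicate 1, 0.15 without rhChem157S replicate 2 and 0.13 without Control replicate 3, where ESR1 passed the filter in all but the first of these.

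ESR2 encodes oestrogen receptor beta, a ligand-activated transcription factor, and lies on chromosome 14 from 64084232 to 64338112 (GRCh38). It had 15, 15 and 16 counts in Control libraries 1 to 3 and 4, 5 and 4 counts in rhChem157S libraries 1 to 3. The counts were few but tight within each group, and every treated library lay below every Control library. As FPKM this was 0.0431 ± 0.00182 without and 0.0118 ± 0.00188 with rhChem157S (SD, n = 3 each). This is a log2 fold change of -1.71 with a 95% interval of -2.87 to -0.56 (SE 0.50, edgeR adjusted p = 0.128), a level 3.28-fold lower. ESR2 passed the filter on low counts only through the Control group, and a gene kept in this way had to differ, so its place among the tested genes supports nothing. Without the filter its log2 fold change was -1.71 with an unadjusted p of 0.0286 and an adjusted p of 0.203. DESeq2 gave an adjusted p of 0.135, and without rhChem157S replicate 3 edgeR gave a log2 fold change of -1.71 and an adjusted p of 0.152. The SYNE2 gene, which runs on the opposite strand and shares no annotated exon base with ESR2, had 5892 to 10904 counts per library. It differed by -0.10 on the log2 scale (SE 0.18, edgeR adjusted p = 0.770). The strand setting of the counting was not given in the sources used here. Whether reads from SYNE2 introns entered the few ESR2 counts was not tested. ESR2 shares 523 exon bases, 5.6% of its own, with AL161756.1 on the same strand, so counts from those bases are uncertain.

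ESR2 can start from promoters that lie far apart, and the tables do not resolve which start the few reads came from. The stretches before 2 of its RefSeq starts are shown because ESR2 was the member with the largest fold change, and they differ in base composition. They are written 5′ to 3′ on the minus strand of GRCh38.p14, at chr14:64338640-64338863 (distal, 70.1% G and C) and chr14:64294411-64294660 (proximal, 62% G and C), with motif matches in capitals. The motifs searched on both strands were the oestrogen response element (GGTCA, any 3 bases, TGACC), the glucocorticoid and progesterone response element (GNACA, any 3 bases, TGTNC), the nuclear receptor half-site AGGTCA, the GC box GGGCGG, the CCAAT box CCAAT and the TATA box TATAAA, and the half-site can also fall inside a longer receptor element.
ESR2 distal: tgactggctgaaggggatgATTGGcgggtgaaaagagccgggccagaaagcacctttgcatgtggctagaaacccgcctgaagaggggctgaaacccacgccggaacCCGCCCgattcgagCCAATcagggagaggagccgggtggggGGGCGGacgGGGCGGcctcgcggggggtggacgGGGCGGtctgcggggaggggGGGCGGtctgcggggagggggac
ESR2 proximal: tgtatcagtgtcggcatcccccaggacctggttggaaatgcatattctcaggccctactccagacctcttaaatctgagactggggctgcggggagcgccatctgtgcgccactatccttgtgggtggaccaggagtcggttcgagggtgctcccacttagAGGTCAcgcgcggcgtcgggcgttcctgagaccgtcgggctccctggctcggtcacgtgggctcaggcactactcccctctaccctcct
The distal stretch held 5 GC boxes and 2 CCAAT boxes and the proximal stretch 1 half-site. The proximal stretch was picked because it holds the half-site and no annotated exon, so this match was fixed by the choice. An ESR2 window that overlaps the proximal one held the same half-site. The remaining ESR2 windows, among them that of the distal start, held 0 half-sites. Of the 35116 RefSeq windows of 250 bases, 42.6% held a GC box, 32% a CCAAT box, 12.1% the half-site, 10.7% the TATA box, 0.327% the glucocorticoid and progesterone element and 0.0399% the oestrogen element, so these are common letters except for the long elements. Neither long element was found in any of the 28 windows of the 9 members, which says only that these letters are not there.

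ESR1, on chromosome 6 from 151656691 to 152129619, encodes oestrogen receptor alpha, the main oestrogen receptor of the endometrium. Control cells gave 2, 10 and 17 counts, and treated cells 2, 6 and 19. Libraries of one group differed more than the groups did. The FPKM was 0.0163 ± 0.0127 without and 0.0147 ± 0.0145 with rhChem157S (SD, n = 3 each). ESR1 did not pass the filter, and with no filter its log2 fold change was 0.04 with a 95% interval of -2.32 to 2.39 (adjusted p = 0.989, edgeR), so that a change of several fold in either direction was not detectable at this depth.

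GPER1, on chromosome 7 from 1082208 to 1093815, encodes a G protein-coupled receptor that binds oestradiol. The 3 Control libraries held 157, 142 and 176 counts of it and the 3 treated libraries 165, 79 and 101. Treated replicates 2 and 3 were below all Control libraries and treated replicate 1 was among them. The FPKM was 1.60 ± 0.186 (SD, n = 3) without and 1.12 ± 0.404 (SD, n = 3) with rhChem157S, a log2 difference of -0.40 with a 95% interval of -1.08 to 0.28 (SE 0.29, edgeR adjusted p = 0.427). Leaving out treated replicate 1 gave -0.69 (edgeR adjusted p = 0.156), and leaving out treated replicate 2 gave -0.21 (edgeR adjusted p = 0.714).

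PGR, the nuclear receptor for progesterone, lies on chromosome 11 from 101029624 to 101130524. Counts of 145, 154 and 184 were found without rhChem157S, and 181, 291 and 269 with it. Treated replicates 2 and 3 were above every Control library, while treated replicate 1 lay just below Control replicate 3 in FPKM. In FPKM, Control cells had 0.255 ± 0.0319 (SD, n = 3) and treated cells 0.380 ± 0.0981 (SD, n = 3). The PGR groups differed by 0.71 on the log2 scale with a 95% interval of 0.10 to 1.32 (SE 0.26), at an adjusted p of 0.173 with edgeR and 0.0912 with DESeq2. Leaving out treated replicate 1 gave 0.92 (edgeR adjusted p = 0.0511, DESeq2 adjusted p = 0.00156), and leaving out treated replicate 3 gave 0.60 (edgeR adjusted p = 0.226). Without treated replicate 1 DESeq2 called 2704 of 13517 genes. PGR shares 812 of its 15404 merged exon bases with PGR-AS1 on the opposite strand, which was not analysed here. Since the strand setting of the counting was not given in the sources used here, reads from the shared bases cannot be assigned to either gene.

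PGRMC1, on chromosome X from 119236245 to 119244466, encodes a haem-binding membrane protein that takes part in rapid progesterone signalling and in sterol metabolism. Control cells had 42.6, 47.8 and 41.5 FPKM and treated cells 51.7, 48.6 and 60.4 FPKM. Every treated library was above every Control library, by the smallest margin between treated replicate 2 and Control replicate 2. The group levels were 44.0 ± 3.35 (SD, n = 3) and 53.6 ± 6.11 FPKM (SD, n = 3). After TMM scaling the treated level was 1.34-fold higher, or 0.42 on the log2 scale with a 95% interval of 0.12 to 0.73 (SE 0.13), at an adjusted p of 0.137 with edgeR and 0.0543 with DESeq2. With library size alone, the scaling behind the FPKM, it was 0.28 (edgeR adjusted p = 0.185). Leaving out treated replicate 3 gave 0.27 (edgeR adjusted p = 0.0990, DESeq2 adjusted p = 0.0370), and leaving out treated replicate 1 gave 0.47 (edgeR adjusted p = 0.0819) or 0.48 with DESeq2 (adjusted p = 0.0273). DESeq2 called 1804 of 13521 genes without treated replicate 3 and 2704 of 13517 without treated replicate 1. The 210 bases before the GENCODE start of PGRMC1, chrX:119236035-119236244 on the plus strand of GRCh38.p14 (RefSeq), are shown because PGRMC1 was the other member whose groups did not overlap.
PGRMC1: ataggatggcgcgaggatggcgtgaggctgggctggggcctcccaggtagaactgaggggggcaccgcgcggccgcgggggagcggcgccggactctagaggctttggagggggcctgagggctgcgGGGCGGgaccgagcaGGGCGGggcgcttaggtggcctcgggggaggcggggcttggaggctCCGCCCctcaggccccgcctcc
The capitals mark 3 GC boxes, and none of the other 5 motifs was found in this stretch, which is 76.2% G and C.

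PGRMC2, on chromosome 4 from 128269237 to 128288829, encodes the close relative of PGRMC1. It stood at 16.3, 14.7 and 13.4 FPKM in Control cells and at 14.1, 12.8 and 12.0 FPKM in treated cells, and the groups overlapped. On the log2 scale the difference was -0.07 with a 95% interval of -0.31 to 0.18 (SE 0.10, edgeR adjusted p = 0.723). The relation of the pair was therefore examined within each library, where the scaling between libraries cancels. Control cells held 2.61, 3.26 and 3.11 times as much PGRMC1 as PGRMC2 in FPKM, and treated cells 3.67, 3.81 and 5.04 times. The ranges of the ratio did not overlap and all 3 treated libraries were on the high side, by 0.47 on the log2 scale, which in an exact two-sided permutation test gave p = 0.10, the lowest value that 3 against 3 can give. Leaving out treated replicate 3 gave 0.33.

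**Figure D2:**
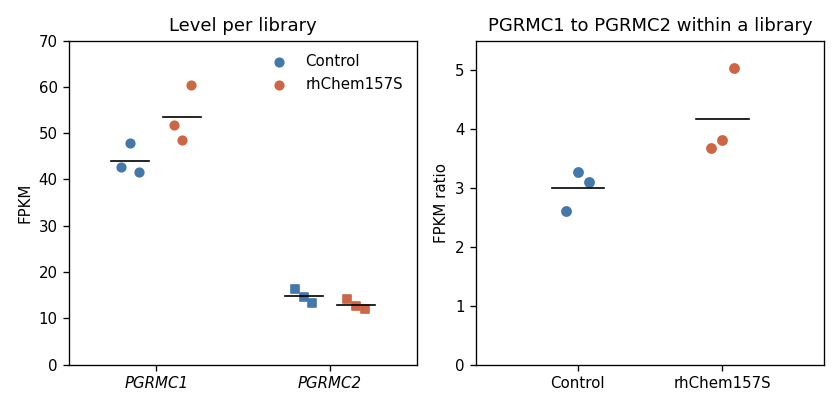
Left, the FPKM of PGRMC1 (circles) and PGRMC2 (squares) in each library, blue for Control and orange for rhChem157S. Right, the ratio of the 2 FPKM values within each library, with group means as black lines. The ratio is 2.61 to 3.26 in the Control libraries and 3.67 to 5.04 in the treated libraries.

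NR3C1, on chromosome 5 from 143277931 to 143435512, encodes the glucocorticoid receptor, the receptor for cortisol. Control cells had 4.16, 4.51 and 4.32 FPKM and treated cells 4.03, 4.36 and 5.80 FPKM. Treated replicate 3 was the highest library, and the other two treated libraries lay within or just below the Control range. The groups differed by 0.27 on the log2 scale with a 95% interval of -0.13 to 0.67 (SE 0.17, edgeR adjusted p = 0.369), by 0.13 with library size alone, and by 0.04 when treated replicate 3 was left out. Set against the coactivator NCOA3, NR3C1 stood at 0.272, 0.327 and 0.358 times its FPKM in Control cells and at 0.322, 0.329 and 0.523 times in treated cells. The ranges of this ratio overlapped (difference of 0.27 on the log2 scale, exact two-sided permutation test, p = 0.50), and without rhChem157S replicate 3 the difference was 0.04, and without Control replicate 1 it was 0.16.

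NR2F2, or COUP-TFII, on chromosome 15 from 96325938 to 96340263, encodes an orphan nuclear receptor that acts downstream of progesterone in the endometrial stroma. Its level was 76.3, 75.8 and 84.9 FPKM without rhChem157S and 62.3, 68.5 and 95.5 FPKM with it. Treated replicates 1 and 2 were below all Control libraries and treated replicate 3 above them all. The fitted log2 difference was 0.08 with a 95% interval of -0.38 to 0.53 (SE 0.19, edgeR adjusted p = 0.829). Its sign rests on 1 library and on the scaling, with -0.19 without rhChem157S replicate 3 and -0.07 when library size alone was used.

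NCOA3, on chromosome 20 from 47501902 to 47656877, encodes a coactivator that docks onto hormone-bound nuclear receptors. The Control libraries had 15.3, 13.8 and 12.1 FPKM and the treated libraries 12.5, 13.3 and 11.1, and the groups overlapped. The difference on the log2 scale was -0.03 with a 95% interval of -0.28 to 0.22 (SE 0.11, edgeR adjusted p = 0.881). NCOA3 shares 96 of its 8402 merged exon bases with SULF2 on the opposite strand. The other p160 coactivators NCOA1 and NCOA2 had log2 fold changes of 0.06 and 0.11, with overlapping groups.

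**Figure D3:**
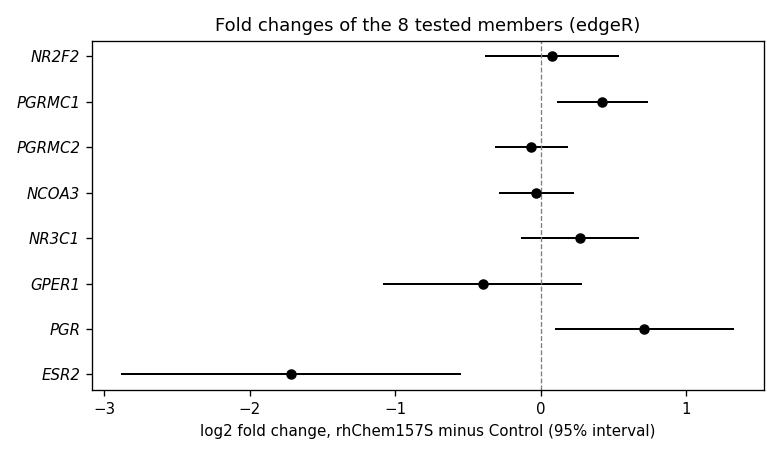
Log2 fold change of the 8 tested members, rhChem157S minus Control (horizontal axis), with points for the edgeR estimate and lines for its 95% interval before adjustment. The intervals of ESR2, PGR and PGRMC1 leave out 0, and those of the other 5 members include it. ESR2 was kept for testing only through its Control libraries, so its interval is no support.

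The spread of the members within the treated group differed from gene to gene. Relative to the Control mean on the log2 CPM scale, rhChem157S replicate 1 deviated by 0.15 in PGR and 0.04 in GPER1, whereas replicates 2 and 3 deviated by 0.95 and 0.91 in PGR and by -0.89 and -0.47 in GPER1. In NR3C1 and NR2F2 the deviation of replicate 3 was 0.64 and 0.50, against -0.04 and 0.12 and against -0.28 and -0.10 in replicates 1 and 2. ESR2 deviated by -1.54, -1.23 and -1.41, the one member with treated libraries all near each other and away from Control. It had few counts and was kept for testing only through its Control libraries, so this pattern is a description. Across the 6 libraries the members with the most similar patterns were NR2F2 and NR3C1 (Pearson r = 0.87, as a description) and NR3C1 and PGRMC1 (r = 0.86), which share the high value of treated replicate 3.

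**Figure D4:**
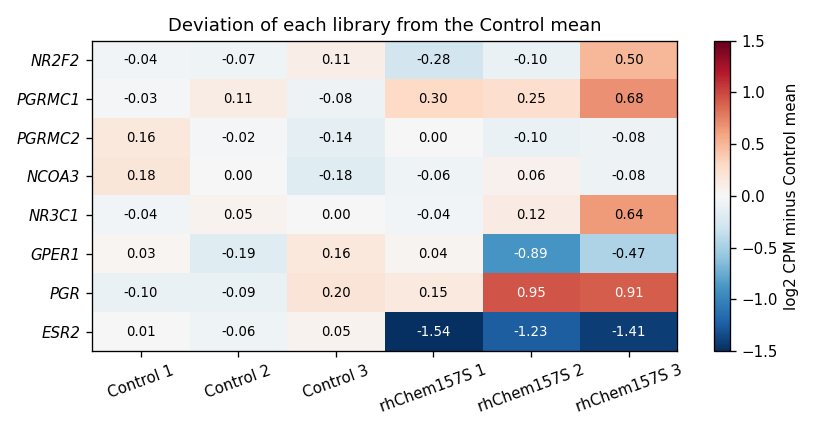
Log2 CPM of the 8 tested members in each library (columns) minus the mean of the 3 Control libraries, with red for higher and blue for lower. ESR2 is low in all 3 treated libraries, PGR is high in treated replicates 2 and 3, and NR3C1 and NR2F2 are highest in treated replicate 3, with NR2F2 at -0.28 in treated replicate 1.

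Over all tested genes, the 3 whose log2 CPM followed each member most closely over the 6 libraries were taken as a description, since with 6 libraries many genes reach a high r. For ESR2 these were FRS3, PLCG1 and MYOZ1 (Pearson r = 0.995 to 0.997), for PGR FGF7, DOK5 and GMPPA (0.992 to 0.993), and for PGRMC1 MMP16, TBC1D22A and RELCH (0.994 to 0.997). NR3C1 went with NSMCE3, SS18 and UTP4 (0.997 to 0.998), and 481 genes had an r above 0.95 with it. NR2F2 went with ATXN2L, RAP1GAP2 and ABRACL (0.994 to 0.999). The weakest likeness was that of NCOA3 with ZNF70, CDC42BPA and ASH1L (0.967 to 0.989) and of PGRMC2 with TPST1, GGCX and ZNF572 (0.974 to 0.987), each with 8 genes above 0.95. GPER1 went with STK32C, PRSS35 and BEST4 (0.986 to 0.989).

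The genes around the receptors were described by lists of genes grouped by role, in which 0 genes passed an adjusted p of 0.05 with edgeR. The related receptors and binding proteins had a median log2 fold change of -0.31 over 13 of 14 genes tested, with 12 lower and 1 higher. At an unadjusted p under 0.05 there were 5 lower and 0 higher, where 11.4% of all genes were lower and 11.4% higher. These were TMEM97 (-0.61), the sigma-2 receptor and a partner of PGRMC1, PAQR6 (-0.80), a membrane progestin receptor, ESRRA (-0.46), an oestrogen-related orphan receptor, CYB5D2 (-0.42), a haem-binding relative of PGRMC1, and NR2F6 (-0.29), a relative of NR2F2. TMEM97 had 27.3 ± 4.26 FPKM without and 16.4 ± 3.44 FPKM with rhChem157S (SD, n = 3 each), with an adjusted p of 0.0126 from DESeq2, against 0.112 from edgeR. DESeq2 also called PAQR6, ESRRA and NR2F6 lower, with adjusted p of 0.0255, 0.0235 and 0.0307, where it called 10.6% of all genes in either direction. In all 5 the groups did not overlap after TMM scaling, as in 16.0% of all genes in this direction. The 5 were picked by a low p, which tends to go with no overlap, so this is only a description. With one library left out the edgeR median of the list stayed between -0.43 and -0.22, but the DESeq2 calls were less steady. DESeq2 called 0 of the list without Control replicate 1, Control replicate 2 or rhChem157S replicate 2, and 1 lower without Control replicate 3. Without rhChem157S replicate 1 or 3 it called 4 lower. The settings with 0 or 1 call also had fewer calls over all genes, 300 to 761 against 1407 with all libraries.

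The receptor chaperones, which fold the ligand-binding domain, had a median of 0.32 with 10 of 12 genes higher. With edgeR, 6 were higher and 0 lower at an unadjusted p under 0.05, where 11.4% of all genes went each way. HSP90AB1 and HSP90AA1, the HSP90 proteins that hold the receptors, had log2 fold changes of 0.62 and 0.61. STIP1 and PTGES3, co-chaperones that hand over and stabilise the receptor, had 0.63 and 0.34. These 4 were called by DESeq2, with adjusted p of 0.0214, 0.0299, 0.0300 and 0.0305, and edgeR gave 0.135, 0.141, 0.135 and 0.123. Of all genes, DESeq2 called 10.6%. HSPA8, the constitutive HSP70, had 0.75 and AHSA1, which stimulates HSP90, 0.39, and neither was called by DESeq2. HSP90AB1 had 438 ± 35.5 FPKM without and 611 ± 125 FPKM with rhChem157S (SD, n = 3 each). The immunophilins FKBP4 and FKBP5 did not pass at this level, with 0.24 and -0.10. The median of the list was 0.20 without rhChem157S replicate 3, over 1.5 times smaller, and 0.18 with library size alone. DESeq2 called 0 of the list without Control replicate 1, 2 or 3, and 1 higher without rhChem157S replicate 2. Without rhChem157S replicates 1 and 3 it called 6 and 5 higher. The settings with 0 or 1 call also had fewer calls over all genes.

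The coregulators had a median of 0.17 over 16 genes, with 12 higher and 4 lower, and 0.03 with library size alone or 0.07 without rhChem157S replicate 3. At an unadjusted p under 0.05 there were 5 higher and 2 lower, where 11.4% of all genes went each way. The corepressor NRIP1 had a log2 fold change of 0.53, the repressor PHB2 0.34, the methyltransferase CARM1 0.31, the chromatin remodeller SMARCA4 0.27 and the receptor scaffold PELP1 0.21. PHB2, a binding partner of oestrogen receptors, was the one called by DESeq2 (adjusted p = 0.0469), where 10.6% of all genes were. Of the 2 lower ones PPARGC1A had -1.52, from 72 to 91 counts in Control and 7 to 47 in treated libraries, and NCOA7 had -0.41. The partner transcription factors had a median of -0.08 over 9 of 12 genes tested, with 0 at an unadjusted p under 0.05 and 0 called by DESeq2. With library size alone the median was -0.20 and 9 of 9 were lower. It was -0.18 without rhChem157S replicate 1, where DESeq2 called 2 lower, -0.15 and -0.16 without rhChem157S replicates 2 and 3, and -0.17 without Control replicate 2. The most abundant of these were CEBPB with 0.05 and GATA6 with -0.05, and FOXA1, GATA3 and SOX17 were too low to test.

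**Figure D5:**
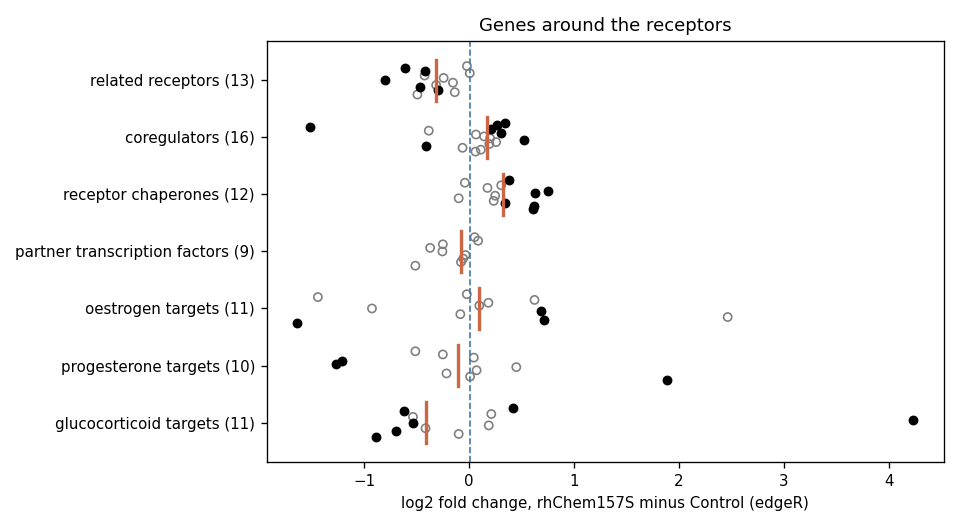
Log2 fold changes, rhChem157S minus Control (horizontal axis), of the genes in 7 lists, with the number of tested genes in brackets. Each circle is 1 gene, filled where the unadjusted edgeR p is under 0.05, the orange bar is the median of the list and the blue dashed line the median of all genes. The median is -0.31 for the related receptors, 0.32 for the receptor chaperones and -0.41 for the glucocorticoid targets.

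The hormone target lists were read next to their receptors. Of the 11 oestrogen targets tested, 6 had higher and 5 lower estimates, and their median of 0.10 was -0.04 with library size alone and -0.14 without rhChem157S replicate 3. It was -0.04 without Control replicate 1, 0.35 without Control replicate 3 and 0.27 without rhChem157S replicate 1. GREB1, an early target of ESR1, gave 76, 172 and 182 counts without rhChem157S and 62, 47 and 23 with it, or -1.63 on the log2 scale (SE 0.45), at an adjusted p of 0.120 with edgeR and 0.0107 with DESeq2. CXCL12, a chemokine, had 0.68 (SE 0.18, adjusted p = 0.111 with edgeR and 0.0106 with DESeq2), and PGR is itself on this list. Of the 10 progesterone targets tested, 5 had higher and 5 lower estimates, and their median of -0.10 was -0.36 without rhChem157S replicate 3, -0.20 without Control replicate 3 and -0.20 without rhChem157S replicate 1. WNT4 (-1.26) and GPX3 (-1.21) were lower and SPP1 (1.89) higher at an unadjusted p under 0.05, and DESeq2 called all 3. Of all genes, 11.4% went each way at that p with edgeR, and DESeq2 called 10.6%. The paper had already reported WNT4 as down-regulated in these same samples, so its call here is no separate support. The value of SPP1, which encodes osteopontin, was led by treated replicate 3 with 1206 counts, against 237 and 335 in the other treated libraries and 156 to 188 in Control. PAEP, IGFBP1 and PRL, the secretory and decidual products under progesterone, had 0 or 1 count in every library.

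The glucocorticoid targets had a median of -0.41 over 11 genes, with 7 lower and 4 higher, beside a receptor with overlapping groups. At an unadjusted p under 0.05 there were 4 lower and 2 higher, where 11.4% of all genes went each way. The lower ones were TSC22D3, which encodes the anti-inflammatory protein GILZ (-0.89), the clock gene PER1 (-0.70), the NF-kB inhibitor NFKBIA (-0.61) and the transcription factor KLF9 (-0.53). In these 4 the groups did not overlap after TMM scaling, as in 16.0% of all genes in this direction. Genes picked by a low p tend not to overlap, so this is only a description. PER1 had 7.50 ± 0.961 FPKM without and 4.25 ± 0.721 FPKM with rhChem157S (SD, n = 3 each), with an adjusted p of 0.0752 from edgeR and 7.36e-04 from DESeq2. DESeq2 also called TSC22D3 and NFKBIA lower and ZFP36, which destabilises cytokine mRNAs, higher (log2 fold change 0.42), where it called 10.6% of all genes. ANGPTL4 had a log2 fold change of 4.23 (edgeR adjusted p = 0.201) with overlapping groups, and treated replicate 3 had 4563 counts against 24 to 149 in the other 5 libraries. Without rhChem157S replicate 3 edgeR called 2 genes of this list, both lower, and the median was -0.15. Leaving out Control replicate 3 gave a median of -0.07, and leaving out rhChem157S replicate 1 gave -0.21. FKBP5, a standard reporter of glucocorticoid receptor activity, had -0.10 (SE 0.13, edgeR adjusted p = 0.678).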

How the data were processed

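RNA of 12Z cells was sequenced in 6 libraries, 3 Control and 3 rhChem157S. According to the study's methods and the submitters' processing notes, the authors trimmed reads with fastp, aligned them to GRCh38.p13 with HISAT2, counted them per gene with HTSeq and tested them with DESeq2. Neither the strand setting of the counting nor the release of the annotation was given in the sources used here. The deposited tables hold raw counts per gene and FPKM values, which the authors obtained by dividing each count by gene length and library total. Levels between genes were compared in FPKM, and groups were compared on the counts.

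Genes were kept with filterByExpr (edgeR 4.0.16, minimum count 10, minimum total count 15), scaled by TMM and tested by edgeR's quasi-likelihood test in R 4.3.3, with p-values adjusted by Benjamini-Hochberg across 13311 genes and a threshold of 0.05. The comparison was repeated with DESeq2 1.42.0, with limma 3.58.1 on log-transformed FPKM (log2, pseudocount 1 or 0.1), with other scalings and filters, robust dispersion, a replicate block, and each library left out. The scripts were tested on simulated data. Ratios within a library were compared by exact two-sided permutation tests, and 95% intervals cover the fit before adjustment for multiple testing. Floors of 3 counts cover counting error only. The text names all 9 members, every gene of the 7 role lists with an unadjusted p under 0.05 (or the 2 most abundant where fewer than 2 had one), and the 3 genes most correlated with each member in TMM-scaled log2 CPM. FKBP4, FKBP5, NCOA1, NCOA2, FOXA1, GATA3, SOX17, PAEP, IGFBP1, PRL, SYNE2, SULF2 and some of the cell type markers, among them all with an unadjusted p under 0.05, were named besides. The members and lists were chosen with earlier results of these data known. TFF1, ZBTB16, CD3E and NKG7 were not analysed here. Some genes are on more than 1 list. Gene positions came from GENCODE release 29 and promoter sequences from RefSeq (GRCh38.p14), where all 9 members matched. Printed stretches end where an annotated exon begins.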

Additional observations from a re-analysis of the deposited data

How the results depend on the processing

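Of 119 planned values for the tested members, 113 kept their direction and their side of the threshold and 6 reversed. With DESeq2 and each library left out, chosen after seeing the data, this was 155 of 167, with 9 reversed and 3 newly past the threshold. NR2F2 had a log2 fold change of -0.066 with library size only, -0.088 and -0.089 with limma at pseudocounts of 1 and 0.1, and -0.19 without rhChem157S replicate 3 (-0.19 with DESeq2). The limma values at those pseudocounts were -0.044 and -0.36 for ESR2 and 0.13 and 0.42 for PGR, whose FPKM lie below the pseudocount of 1. With library size only, PGRMC2 had -0.19 and NCOA3 -0.16. Without Control replicate 1, PGRMC2 had 0.021 (0.016 with DESeq2) and NCOA3 0.064 (0.059 with DESeq2). With libraries left out, edgeR gave ranges of -0.19 to 0.22 for NR2F2, -0.13 to 0.02 for PGRMC2 and -0.11 to 0.06 for NCOA3. The members called by DESeq2 with a library left out ranged from 0 to 2. They were PGR and PGRMC1 without rhChem157S replicate 1 (0.93 and 0.48, adjusted p = 0.00156 and 0.0273) and PGRMC1 without rhChem157S replicate 3 (0.27, adjusted p = 0.0370). In these settings DESeq2 called 2704 of 13517 and 1804 of 13521 genes.

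Over all genes, 4 were called, against 17 with no filter, 1407 with DESeq2, 179 and 23 with limma at pseudocounts of 1 and 0.1, and 0 to 844 with edgeR and 300 to 2704 with DESeq2 when a library was left out (761, 300 and 585 without Control replicates 1 to 3, 658 without rhChem157S replicate 2). The larger counts came without rhChem157S replicate 1 (844 and 2704) or 3 (415 and 1804). The cause was not tested. ESR2 could not be fitted under the filter of CPM above 1, which drops it. With GENCODE exon lengths, chosen after seeing the data, PGRMC2 had 10.1 and NR3C1 9.88 FPKM.

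The replicate numbers were not taken as pairs in the main fit. Same-numbered deviations correlated by 0.00147 to 0.247, and 2 of 3 were over 0.1. Differently numbered ones correlated by -0.306 to 0.106. Whether same-numbered libraries belong together was not tested. Control replicate 2 correlated better with rhChem157S replicate 1 than with its own number. With the replicate block 1 gene was called over all genes and 0 members. At these depths ESR1 and ESR2, with at most 19 counts per library, limit what could be detected.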
